A study of Arabidopsis thaliana with 16 samples.

Results

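Roots of the ethylene-insensitive Arabidopsis mutant ein2-5 (ein2) were compared with roots of the wild type Col-0 (Col) after both had been given auxin. The comparison set 2 ein2 IAA arrays against 2 Col IAA arrays, out of 16 arrays in the series. Every probe set that was no control and exceeded a log2 value of 4 on 2 or more of the 16 arrays was a member, which left 14244 of 22810 probe sets. A locus code was available for 7681 of these, in 7608 loci, and 6194 were unlisted in the annotation and are counted but mostly not named. Seeds were stratified at 4 °C, and seedlings of both genotypes grew in darkness for 3 days at 22 °C. The IAA groups (ein2 IAA and Col IAA) were sprayed with 1 µM indole-3-acetic acid (IAA, the main natural auxin) in 0.01% ethanol. The mock groups (ein2 mock and Col mock) were sprayed with 0.01% ethanol alone, and all stayed dark for another 4 h. Roots were then cut from the hypocotyls, so each array held RNA of whole roots. The other experiment of the series, which shares no array with this one, held Col-0 and the auxin influx mutant aux1-7 (aux1) for 4 h in 10 ppm ethylene or in hydrocarbon-free air. Both mutants were represented by 1 allele that acts in the whole plant, and the series calls the 2 arrays of a group biological replicates.

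EIN2 is a membrane protein that carries the ethylene signal from the receptors to the transcription factor EIN3 and its relatives, and plants without it do not respond to ethylene. Ethylene and auxin act together in roots: ethylene promotes auxin synthesis and transport towards the elongation zone, and both hormones slow root elongation. Auxin itself is sensed by nuclear receptors that release transcription factors of auxin-responsive genes, such as the GH3 enzymes that conjugate auxin to amino acids and the LBD regulators of lateral root formation. The comparison in IAA asks which root genes depended on a working ethylene pathway once auxin had been supplied from outside.

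The arrays were of even quality, with medians between 5.874 and 6.004 on the log2 scale and correlations between the 2 arrays of a group of 0.993 to 0.998. The median SD between replicates was 0.0954 in ein2 IAA and 0.0845 in Col IAA. No named probe set matched EIN2, the fixed hypocotyl and shoot markers or the fixed root identity markers, so the mutated gene and the labelled organ were not checked by them. The root hair wall genes EXPA7 and EXPA18 lay between 7.89 and 8.92 in ein2 IAA and between 7.40 and 8.28 in Col IAA. In whole roots, fewer cells of a type and less RNA per cell cannot be told apart.

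The mutant differed from the wild type with auxin present at many genes, and the differences were large. Among the largest differences higher in ein2 were genes of 2 GDSL esterases and 2 lipid transfer proteins, and 6 peroxidases, 5 dirigent proteins and 5 expansins were called higher. Lower in ein2 were RTE1 and ARL, genes of the ethylene response, the peroxidase gene AT1G49570, and genes of the low-oxygen response. Of the 14244 probe sets, 1016 (7.13%) passed limma's moderated test at an adjusted p under 0.05 (called, in what follows). These were 563 higher (3.95%) and 453 lower (3.18%) in ein2, and 2746 had an unadjusted p under 0.05. Among them, 305 higher and 222 lower probe sets had a locus code, and 251 and 222 were unlisted.

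The sizes were not symmetric. At least 2-fold differences were seen at 299 called probe sets higher in ein2 and 166 lower. At least 4-fold differences were seen at 128 and 56, and at least 16-fold ones at 15 and 6. The median difference was 1.05 on the log2 scale among those called higher, -0.82 among those called lower and -0.01 over all tested. Probe sets called higher had a median level of 7.84 in ein2 IAA against 6.36 in Col IAA, and those called lower 7.59 in ein2 IAA against 8.60 in Col IAA. In none of the 1016 did the ein2 arrays overlap the Col arrays, while 26.7% of all tested probe sets lay apart with ein2 higher and 29% with ein2 lower. A level of 2.55, the highest of the arrays' lower quartiles, was taken as near background. In 23 of those called higher the Col IAA mean was under it, and in 4 of those called lower the ein2 IAA mean was, and there the size of the difference is limited by the background. The filter bears on the counts as well, and on the asymmetry of the sizes. With the filter set at 6 instead of 4, 467 probe sets were called higher and 446 lower. How far the asymmetry of the sizes rests on probe sets admitted through 1 genotype was not tested. Of the 563 called higher, 83 reached the level of 4 on fewer than 2 arrays outside ein2 IAA and ein2 mock, so that they passed the filter only through the ein2 arrays, where they had to be higher. For 24 of these it was the ein2 IAA arrays alone. Of the 453 called lower, 3 passed only through the Col IAA and Col mock arrays. These probe sets are given as descriptions. The count of 1016 was 570 without Col IAA replicate 1, 515 without Col IAA replicate 2, 676 without ein2 IAA replicate 1 and 539 without ein2 IAA replicate 2. With the replicate number as a block it was 1531, 802 higher and 729 lower.

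**Figure D1:**
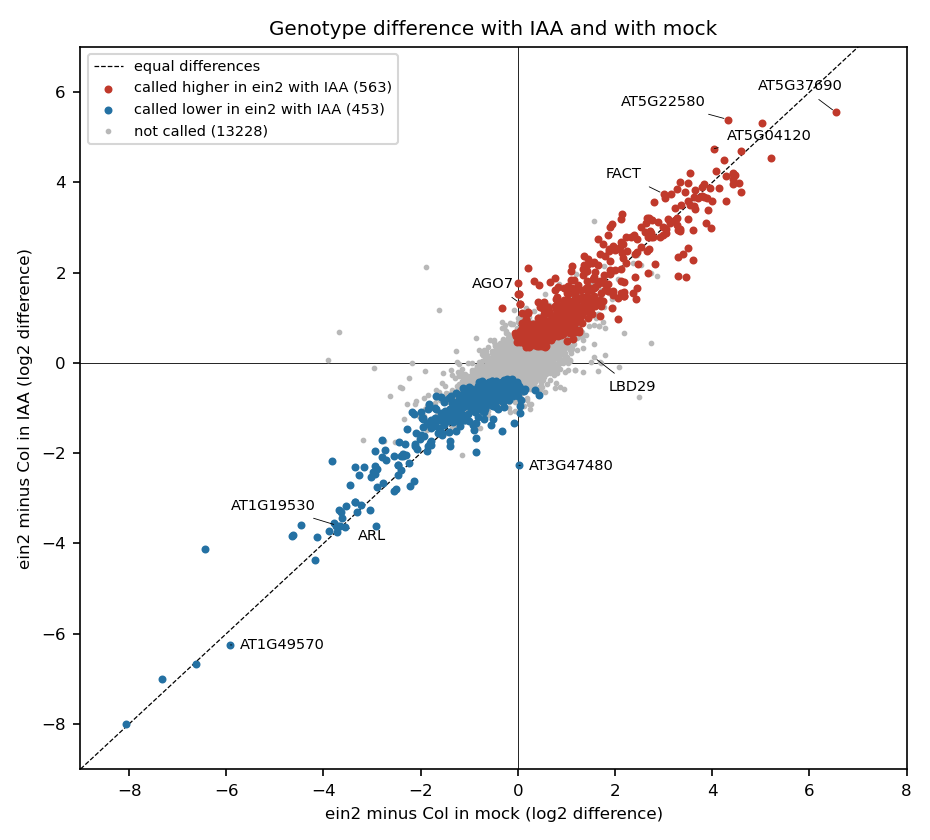
Difference between ein2 and Col on the log2 scale with IAA (vertical) and with mock (horizontal), 1 point per tested probe set and 2 arrays per group. The 563 probe sets called higher (red) and the 453 called lower (blue) with IAA lie mostly along the dashed line of equal differences, AT3G47480 and AGO7 lie near 0 on the mock axis, and LBD29 lies near 0 on the IAA axis.

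Genes of the ethylene pathway itself gave the first check of the mutant. RTE1 (AT2G26070), which acts on the ethylene receptor ETR1, had levels of 6.06 and 6.08 in ein2 IAA, against 7.16 and 7.36 in Col IAA. The ein2 arrays were lower without overlap, by 1.19 ± 0.18 on the log2 scale (SE, n = 2 arrays per group, limma adjusted p = 0.00155). ARL (AT2G44080), which promotes cell expansion, had levels of 3.67 and 3.86 in ein2 IAA, against 7.20 and 7.59 in Col IAA, a difference of -3.63 ± 0.35 (12.4-fold, adjusted p = 6.84e-05). Ethylene raised both in Col, RTE1 by 2.92 and ARL by 3.901. The transcription factor EIN3 (AT3G20770) differed by -0.21 ± 0.14 (adjusted p = 0.476), and RTH (AT3G51040), a relative of RTE1, by 0.21 ± 0.14 (adjusted p = 0.492). Of the 3 tested members of the list of ethylene signalling genes, RTE1 was the one called.

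The largest difference of a gene with a locus code was that of AT1G49570, which encodes a class III peroxidase, an enzyme of the cell wall that uses hydrogen peroxide to oxidise phenolic compounds. Its levels were 5.85 and 4.13 in ein2 IAA, against 10.67 and 11.81 in Col IAA. The mutant was lower by 6.25 ± 0.51 (76.0-fold, adjusted p = 1.75e-05), and the replicates of each genotype differed by more than 1 log2 unit, less than the genotypes did. It was lower with mock too (-5.91), and its ethylene response in Col did not pass the test (1.23, adjusted p = 0.192). Among the unlisted probe sets, the one furthest below the wild type had 2.78 and 3.59 in ein2 IAA, against 11.04 and 11.33 in Col IAA (-8.00 ± 0.32), and the next had 2.64 and 3.46 in ein2 IAA, against 9.90 and 10.20 in Col IAA (-7.00 ± 0.26). Both probe sets were low on each ein2 array and high on each Col array.

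**Figure D2:**
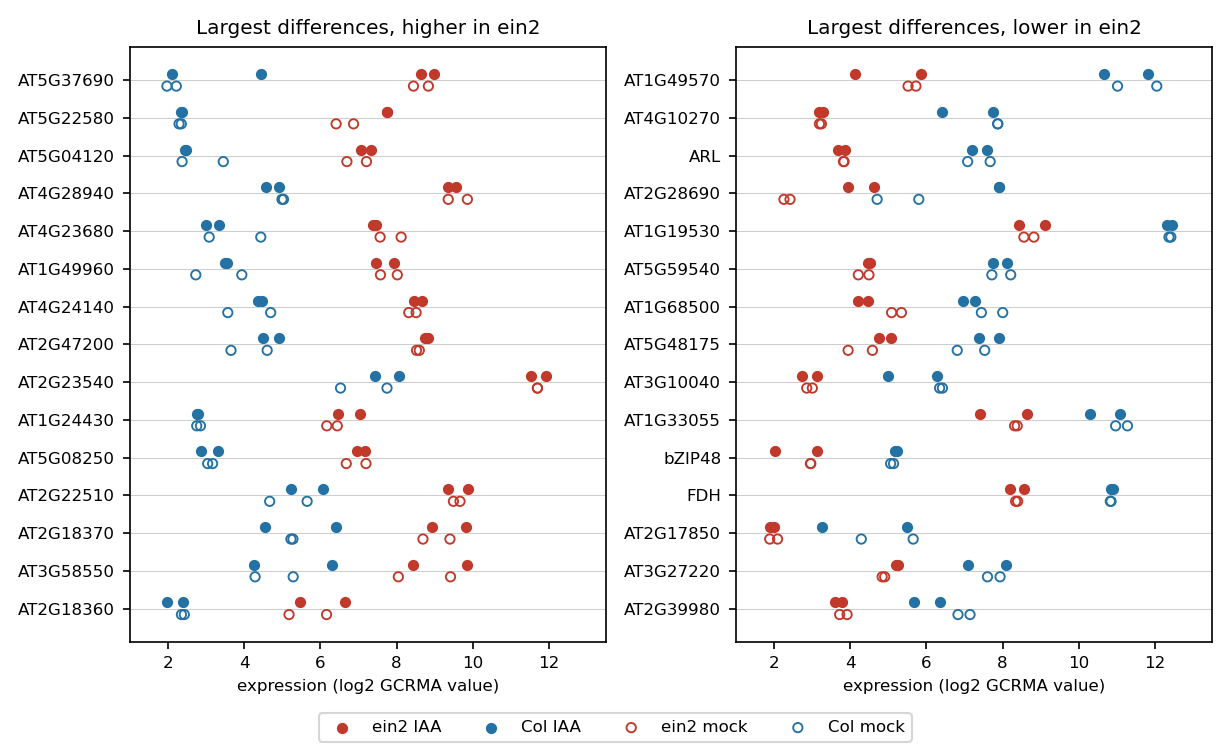
Expression (log2 GCRMA value, horizontal) of the 15 genes with the largest differences called higher (left) and lower (right) in ein2 with IAA. Each gene has the IAA arrays (filled) above the mock arrays (open), ein2 in red and Col in blue, and no filled red point overlaps the filled blue points of its gene; AT5G22580 stood at 7.76 and 7.76 in ein2 IAA against 2.38 and 2.35 in Col IAA.

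Genes of the low-oxygen response were lower in ein2. Plants switch them on when oxygen is short, through transcription factors of the ethylene response factor family that oxygen makes unstable. A core list held 49 loci, of which 27 could be named on the array and 21 passed the filter. With IAA, limma called 12 lower in ein2 and 0 higher (15 and 0 at an unadjusted p under 0.05), against 3.18% and 3.95% of all probe sets, and the median over the 21 was -0.94, against -0.01 over all. AT4G10270, of a family of wound-responsive proteins, had 3.296 and 3.191 in ein2 IAA, against 6.41 and 7.75 in Col IAA (-3.84 ± 0.48, adjusted p = 0.000484). AT1G19530 had 9.12 and 8.42 in ein2 IAA, against 12.32 and 12.44 in Col IAA (-3.61 ± 0.19, adjusted p = 4.1e-07). The trihelix transcription factor gene AT3G10040, known as HRA1, had 3.13 and 2.73 in ein2 IAA, against 4.99 and 6.27 in Col IAA (-2.70 ± 0.34, adjusted p = 0.000485). All 3 genes were lower in both ein2 arrays than in either Col array.

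Other called members of the low-oxygen list were AT1G33055 (-2.67 ± 0.33), the rhodanese-like AT2G17850 (-2.42 ± 0.64), the kelch repeat gene AT3G27220 (-2.35 ± 0.30), AT4G27450 (-2.06 ± 0.23) and AT4G24110 (-1.72 ± 0.39). PDC2 (AT5G54960), a pyruvate decarboxylase of ethanolic fermentation, was lower by 1.104 ± 0.24 (adjusted p = 0.017), and the universal stress protein gene AT3G03270 by 1.04 ± 0.17. The smallest of the called differences were those of AT3G10020 (-0.94 ± 0.14) and AT4G39675 (-0.70 ± 0.12). The 9 members not called ran from -0.77 for AT3G61930 to 0.14 for AT3G23170, with the calmodulin-like CML38 at 0.03. With the replicate block AT5G66985 was also called (-0.57, adjusted p = 0.0426). Leaving out 1 array of the auxin experiment left 8 to 12 members called. PDC2 was not called without Col IAA replicate 2 or either ein2 IAA array (adjusted p of 0.0583 to 0.159), AT4G24110 without any of the 4 (0.059 to 0.143), and AT4G39675 without Col IAA replicate 2 (0.0586). AT2G17850, whose ein2 arrays were near background, lost its call without Col IAA replicate 2 (-1.31, adjusted p = 0.298) or without any ein2 array (0.0601 to 0.186).

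With mock, 14 of the 21 low-oxygen members were called lower in ein2 and 0 higher, with a median of -1.24. In Col, ethylene raised 8 and lowered 1 of them, against 3.98% and 4.77% of all probe sets, and the median was 0.69. Those that ethylene raised and that were lower in ein2 with IAA were AT1G19530 (1.14 with ethylene), AT3G10040 (1.59), AT2G17850 (2.83), AT3G27220 (1.18) and PDC2 (0.89). AT3G10020 (0.04), AT4G39675 (-0.08) and AT4G27450 (0.35) were lower in ein2, and their ethylene responses did not pass the test.

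Several further genes were lower in the mutant. FDH (AT5G14780), the mitochondrial formate dehydrogenase, had 8.57 and 8.19 in ein2 IAA, against 10.89 and 10.84 in Col IAA (-2.49 ± 0.13, adjusted p = 4.35e-07). The 2-oxoglutarate-dependent oxygenase gene AT5G59540 differed by -3.44 ± 0.28, the transcription factor gene bZIP48 (AT2G04038) by -2.62 ± 0.27, and the acyltransferase gene AT2G39980 by -2.31 ± 0.22. AT2G28690 (-3.62 ± 0.48), AT1G68500 (-2.79 ± 0.22) and AT5G48175 (-2.74 ± 0.26) complete the 15 largest. Of these, ethylene raised FDH (1.77), AT5G59540 (2.74), AT2G39980 (4.25), AT2G28690 (2.51) and AT5G48175 (2.39) in Col. AT1G68500 stood at -0.20 and bZIP48 at 0.56 with ethylene, and neither passed. AT1G48690, a member of the GH3 family chosen after its values were seen, had 5.41 and 5.26 in ein2 IAA, against 7.26 and 7.55 in Col IAA (-2.07 ± 0.18, adjusted p = 2.58e-05).

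Suberin is the lipid and phenolic polymer of the endodermis, and 5 genes linked to it were called higher in ein2. They came from a list of 23 loci compiled after these values had been seen, and for the other 18 loci no named probe set was available. The 5 named ones were all tested and called, against 3.95% of all probe sets, with a median of 3.97. The count is a description, since AT5G08250 passed the filter only through the ein2 arrays. AT5G37690, a GDSL esterase/lipase gene, had 8.98 and 8.65 in ein2 IAA, against 4.44 and 2.10 in Col IAA (5.55 ± 0.54, 46.9-fold, adjusted p = 7.34e-05). It was the largest difference of a gene with a locus code in this direction, although the Col arrays differed from each other by more than 2 log2 units. Of the same family, AT2G23540 (3.98 ± 0.46) had 11.92 and 11.53 in ein2 IAA, against 8.05 and 7.43 in Col IAA, and AT1G74460 differed by 3.58 ± 0.35.

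FACT (AT5G63560), which joins caffeic acid to fatty alcohols, had 6.83 and 5.24 in ein2 IAA, against 2.60 and 1.99 in Col IAA (3.74 ± 0.53, adjusted p = 0.0011). Its Col mean lay under the level near background. The cytochrome P450 gene AT5G08250, of the CYP86B family of fatty acid hydroxylases, had 6.95 and 7.18 in ein2 IAA, against 2.88 and 3.32 in Col IAA (3.97 ± 0.29, adjusted p = 8.51e-06). In all 5 genes both ein2 arrays lay above both Col arrays, and all 5 kept their calls without any 1 of the arrays of the auxin experiment. All 5 were also higher with mock, with a median of 4.00, and limma called none for ethylene in Col (median -0.05), where 2 were lower at an unadjusted p under 0.05. AT5G37690 (1.942) and FACT (1.935) were near background in Col air, where a fall with ethylene could not be seen.

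The 15 largest differences also held 2 genes of lipid transfer proteins. The lipid transfer protein gene AT2G18370 had 9.82 and 8.94 in ein2 IAA, against 6.42 and 4.55 in Col IAA (3.89 ± 0.49, adjusted p = 0.00048). Another gene of such proteins, which carry lipids across the wall, AT3G58550, differed by 3.87 ± 0.72 (adjusted p = 0.00643). It was not called without Col IAA replicate 2 (adjusted p = 0.0699) or ein2 IAA replicate 1 (0.0627). The alpha/beta hydrolase genes AT4G24140 (4.14 ± 0.35) and AT2G18360 (3.86 ± 0.38) and the acyltransferase gene AT1G24430 (3.98 ± 0.22) were higher as well. The replicates of AT1G24430 were close, with 7.04 and 6.46 in ein2 IAA against 2.79 and 2.76 in Col IAA.

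AT5G22580, of the stress-responsive A/B barrel family, had 7.76 in both ein2 IAA arrays, against 2.38 and 2.35 in Col IAA (5.39 ± 0.13, 42.0-fold, adjusted p = 1.16e-09). AT5G04120, a phosphoglycerate mutase-like gene, had 7.34 and 7.08 in ein2 IAA, against 2.46 and 2.46 in Col IAA (4.75 ± 0.28, adjusted p = 8.99e-07). Both genes were near background in Col, and AT5G22580, like the Bet v 1-like AT4G23680, passed the filter only through the ein2 arrays. AT4G28940, of the nucleoside phosphorylase family, was higher by 4.71 ± 0.17, AT4G23680 by 4.25 ± 0.36 and the nucleobase permease gene AT1G49960 by 4.17 ± 0.38. AT2G47200 (4.08 ± 0.32) and the hydroxyproline-rich glycoprotein gene AT2G22510 (3.96 ± 0.39) complete the 15. The 2 unlisted probe sets with the largest differences (5.32 ± 0.21 and 4.53 ± 0.43) were of the same size, and the first of them passed the filter only through the ein2 arrays. Of the 15, AT5G04120 was lowered by ethylene in Col (-3.52, adjusted p = 1.76e-05), and the other 14 were not called for ethylene. In Col air AT5G37690 (1.94), AT5G22580 (2.32) and AT2G18360 (1.85) were near background, where a fall with ethylene could not be seen. Others stood higher there, such as AT2G23540 (6.64) and AT4G28940 (5.01).

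Class III peroxidases moved both ways. Of 73 loci, 55 could be named on the array and 41 passed the filter, of which 6 were called higher and 3 lower with IAA, against 3.95% and 3.18% of all probe sets, with a median of 0.21. AT2G35380 had 9.61 and 9.39 in ein2 IAA, against 5.92 and 5.52 in Col IAA (3.78 ± 0.39, adjusted p = 0.000102). The replicates of AT1G68850 were closer still on these 4 arrays, with 9.26 and 9.26 in ein2 IAA against 5.94 and 5.82 in Col IAA (3.39 ± 0.69, adjusted p = 0.011). Its SE came from all 16 arrays and was wider than the spread on these 4. PRX52 (AT5G05340), a peroxidase of lignin formation, differed by 2.54 ± 0.58, AT5G06730 by 1.56 ± 0.33, AT4G36430 by 1.09 ± 0.22 and AT2G41480 by 1.01 ± 0.25.

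Below AT1G49570 on the other side stood AT5G19890, with 1.62 and 1.66 in ein2 IAA against 3.44 and 3.99 in Col IAA (-2.08 ± 0.55, adjusted p = 0.0451), and AT5G24070 (-1.33 ± 0.21, adjusted p = 0.00209). AT5G19890 was near background in ein2, and ethylene raised it by 6.49 in Col. Single arrays decided much of the peroxidase count. The number called higher was 1 without Col IAA replicate 2, 2 without either ein2 IAA array and 5 without Col IAA replicate 1. AT1G68850 was not called without any 1 of the 4 IAA arrays (adjusted p of 0.0583 to 0.0758), PRX52 and AT5G06730 without Col IAA replicate 2 or either ein2 IAA array (0.0599 to 0.177), AT4G36430 without Col IAA replicate 2 or ein2 IAA replicate 2 (0.0838 to 0.108), and AT2G41480 without Col IAA replicate 2 or ein2 IAA replicate 1 (0.222 to 0.255). AT5G19890 lost its call without any 1 of the 4 IAA arrays or of the ein2 mock arrays (0.0658 to 0.246). With the replicate block AT5G14130 (0.78) and AT1G44970 (0.50) were called higher and AT5G64120 (-0.80) lower.

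**Figure D3:**
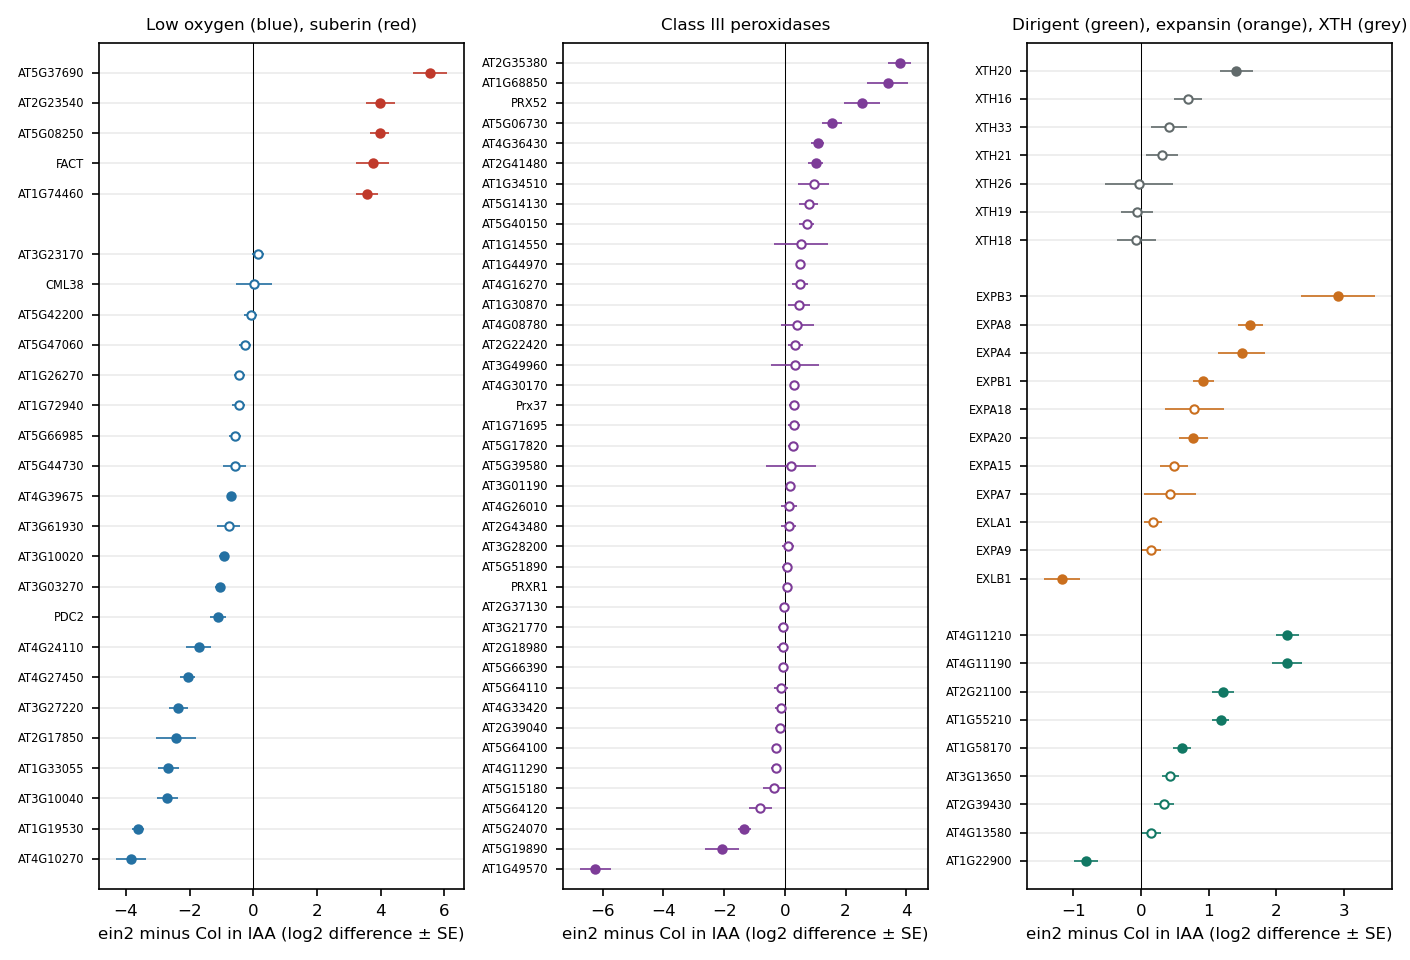
Difference between ein2 and Col with IAA on the log2 scale (horizontal, ± SE, 2 arrays per group) for each tested member of the low-oxygen, suberin, class III peroxidase, dirigent, expansin and XTH lists. Filled points were called. The 12 called low-oxygen members lie left of 0, the 5 suberin members right of 3, and the peroxidases reach from -6.25 to 3.78.

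Dirigent proteins, which guide the coupling of phenolic radicals in lignan and lignin synthesis, were called in both directions. Of 25 loci, 15 could be named on the array and 9 passed the filter, with 5 called higher and 1 lower, against 3.95% and 3.18% of all probe sets, and a median of 0.60. The related genes AT4G11190 and AT4G11210 had almost equal differences, at 2.16 ± 0.23 and 2.17 ± 0.18. For AT4G11210 the levels were 8.43 and 8.73 in ein2 IAA, against 6.15 and 6.67 in Col IAA (adjusted p = 1.71e-05). AT2G21100 (1.21 ± 0.16), AT1G55210 (1.18 ± 0.13) and AT1G58170 (0.60 ± 0.14) were also higher. AT1G58170 was not called without either Col IAA array or without ein2 IAA replicate 2 (adjusted p of 0.0852 to 0.16). Ethylene lowered AT4G11190 (-1.75), AT4G11210 (-1.65) and AT1G55210 (-0.76) in Col and raised AT1G58170 (0.90). With the replicate block AT3G13650 was also called higher (0.43, adjusted p = 0.0267).

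Expansins, which loosen walls during growth, were called in both directions too. Of 18 that could be named, 11 passed the filter, with 5 called higher and 1 lower, against 3.95% and 3.18% of all probe sets, and a median of 0.78. EXPB3 (AT4G28250) had 8.59 and 8.51 in ein2 IAA, against 5.97 and 5.29 in Col IAA (2.91 ± 0.55, adjusted p = 0.00737). EXPA8 (AT2G40610) had 8.03 and 8.36 in ein2 IAA, against 6.50 and 6.67 in Col IAA (1.61 ± 0.19, adjusted p = 0.000235). EXPA4 (AT2G39700) had 11.79 and 11.96 in ein2 IAA, against 10.59 and 10.16 in Col IAA (1.49 ± 0.35, adjusted p = 0.0236). In all 3 both ein2 arrays lay above both Col arrays.

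EXPB1 (0.92 ± 0.15) and EXPA20 (0.78 ± 0.21) were higher, and the expansin-like EXLB1 was lower (-1.17 ± 0.27, adjusted p = 0.0233). The root hair expansins EXPA7 (0.43 ± 0.38) and EXPA18 (0.79 ± 0.44) did not pass. With any 1 IAA array left out, 2 or 3 expansins were called higher. EXPA4 was lost without any 1 of the 4 IAA arrays (adjusted p of 0.0576 to 0.176), EXPA20 without any 1 of these or of the Col mock arrays (0.0697 to 0.267), EXPB3 without Col IAA replicate 2 (0.0775), and EXLB1 without Col IAA replicate 2 or ein2 IAA replicate 2 (0.184 to 0.19). In Col ethylene lowered 4 of the 11 and raised 0, among them EXPA8 (-4.45), EXPB1 (-3.29) and EXPA4 (-1.63). Of 7 tested xyloglucan endotransglucosylase/hydrolase (XTH) genes, which cut and rejoin wall xyloglucan, XTH20 (AT5G48070) was called, with 9.70 and 10.35 in ein2 IAA against 8.55 and 8.67 in Col IAA (1.41 ± 0.24, adjusted p = 0.00377). XTH16 was called with the replicate block (0.69, adjusted p = 0.00794).

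In 3 further enzyme families limma called 14.3% of the tested UDP-glycosyltransferases, 33.3% of the glutathione transferases and 12.5% of the trichome birefringence-like genes, against 7.13% of all probe sets. Of 28 UDP-glycosyltransferases, which attach sugars to hormones and other small molecules, UGT84A4 (1.05 ± 0.18) and UGT71B1 (0.75 ± 0.20) were higher and UGT71C5 (-0.46 ± 0.12) and UGT74D1 (-0.44 ± 0.12) lower. The last 3 were near the threshold (adjusted p of 0.0405 to 0.0466) and lost their calls without most single arrays of the auxin experiment (0.0573 to 0.323). UGT71B1 passed the filter only through the ein2 arrays. With the replicate block UGT74F1 (-0.73, adjusted p = 0.0377) and UGT87A2 (-0.47, adjusted p = 0.0411) were also called lower. Among 9 glutathione transferases, which detoxify reactive compounds, GSTU20 (1.45 ± 0.26) and GSTU26 (0.98 ± 0.18) were higher and GSTU16 (-1.22 ± 0.32) lower. GSTU26 was not called without ein2 IAA replicate 2 (0.0616), nor GSTU16 without any 1 of the IAA or Col mock arrays (0.0563 to 0.252). Of 16 trichome birefringence-like genes, which acetylate wall polymers, TBL30 (0.95 ± 0.21) and TBL41 (0.86 ± 0.13) were higher. TBL30 lost its call without any 1 of the 4 IAA arrays (0.0558 to 0.15), and with the replicate block TBL36 was also called higher (0.64, adjusted p = 0.0304). None of 7 tubulins and none of 6 SWEET sugar transporters was called by limma, 0 and 1 had an unadjusted p under 0.05, and with the replicate block TUB1 (0.39), SWEET3 (0.51) and SWEET11 (-1.15) were.

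The GH3, LBD and HAT2 genes of the auxin-response lists were not called between the genotypes with IAA. WES1 (AT4G27260), a GH3 enzyme, had 12.23 and 12.35 in ein2 IAA, against 12.03 and 12.57 in Col IAA. The ein2 values lay inside the range of the Col values, with a difference of -0.01 and a 95% confidence interval from -0.38 to 0.36. LBD29 (AT3G58190) had 10.45 and 10.63 in ein2 IAA, against 10.21 and 10.61 in Col IAA, an interval of -0.50 to 0.75. For LBD16 (AT2G42430) the interval was -0.48 to 0.41, and for the transcription factor gene HAT2 (AT5G47370) it was -0.19 to 0.50. The GH3 genes GH3.1 (-1.02 to 0.68) and GH3.3 (-1.52 to 1.79) had wider intervals, which leave room for differences of more than 2-fold. GH3.17 had 11.29 and 11.39 in ein2 IAA, against 10.88 and 11.14 in Col IAA, higher in both ein2 arrays. Its interval was 0.05 to 0.61, and it did not pass the test (adjusted p = 0.173).

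None of the 4 tested GH3 genes of the list and none of the 3 LBD and other auxin-response genes was called with IAA. Over all probe sets limma called 7.13%, so with so few genes a count of 0 is near that share. At an unadjusted limma p under 0.05, 1 GH3 gene, GH3.17, passed, and 0 of the other 3. AT1G48690, the GH3 family member described above, was not on the list and was called lower in ein2. With mock, 2 of the 4 GH3 genes, GH3.1 (1.65) and GH3.17 (0.50), and LBD29 (1.56) were higher in ein2 than in Col, against 5.27% of all probe sets. AT1G64405 (interval of -0.37 to 0.34) and, chosen after its values were seen, AT4G37295 (-0.72 to 0.85) were not called with IAA either. AT1G14120, an oxygenase gene related to the auxin oxidase DAO1 and also chosen after its values were seen, had 8.53 and 8.95 in ein2 IAA, against 5.17 and 6.29 in Col IAA (3.01 ± 0.37, adjusted p = 0.000379). No named probe set was available for the auxin synthesis and auxin transport lists, and none of the Aux/IAA members with one passed the filter.

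The same genotype comparison without auxin used other arrays, those of ein2 mock and Col mock, while the spread of each probe set came from all 16 arrays. With mock, 1558 probe sets (10.9%) were called, 751 higher (5.27%) and 807 lower (5.67%) in ein2. Of the 563 higher with IAA, 404 were also called higher with mock, which is 71.8% of the first set and 53.8% of the second. Of the 453 lower with IAA, 350 were also called lower with mock, or 77.3% and 43.4%. No probe set was called in opposite directions. Of those called higher with IAA, 556 had a difference above 0 with mock too, and in 530 (94.1%) both ein2 mock arrays lay above both Col mock arrays, against 33.3% of all tested. Of those called lower, 443 were below 0 with mock and 425 (93.8%) lay apart in that direction, against 26.6% of all tested. Of the 563, 83 passed the filter only through the ein2 IAA and ein2 mock arrays, 24 of these only through the ein2 IAA arrays. For the rest of the 83 the filter itself favoured higher values in ein2 mock. Their part in the overlap is a description.

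These overlaps moved with single arrays. The number higher in both was 259 without Col IAA replicate 2. The number lower in both was 196 without Col IAA replicate 1, 187 without Col IAA replicate 2 and 172 without ein2 IAA replicate 2. The count for mock itself was 2398 with the replicate block, and between 787 and 865 without any 1 of the 4 mock arrays. The median mock difference was 0.93 among those higher with IAA and -0.87 among those lower. Called with IAA alone were 159 higher and 103 lower probe sets, of which 138 had an unadjusted p under 0.05 in the same direction with mock.

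Whether a genotype difference itself changed between mock and IAA was tested as an interaction. No probe set was called by limma, 631 had an unadjusted p under 0.05, and the smallest adjusted p was 0.0655. With the replicate block 5 were called, and 0 to 6 with 1 array of the auxin experiment left out. The genes nearest to a call fell into different patterns. AT3G47480, an EF-hand calcium-binding protein gene, had 3.57 and 4.01 in ein2 IAA, against 5.81 and 6.31 in Col IAA, and 3.32 and 3.45 in ein2 mock, against 3.46 and 3.27 in Col mock. The genotypes thus overlapped with mock and stood apart with IAA, a difference of -2.27 with IAA and 0.02 with mock. The interaction was -2.29 ± 0.29 (limma adjusted p = 0.0655, and 0.0459 with the replicate block). Its adjusted p was 0.299 in the auxin experiment alone and 0.114 with an intensity trend. With 1 array of the auxin experiment left out, the interaction lay between -2.54 and -2.04.

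AGO7 (AT1G69440), an argonaute protein of trans-acting small RNA formation, had 4.41 and 4.49 in ein2 IAA, against 3.13 and 3.14 in Col IAA, and lay between 3.08 and 3.28 in the 4 mock arrays (interaction 1.26 ± 0.19, adjusted p = 0.141). It passed the filter only through the 2 ein2 IAA arrays, where it had to be higher. AT1G64405 showed the reverse pattern, with 9.60 and 9.50 in ein2 IAA against 9.46 and 9.67 in Col IAA. With mock it had 5.74 and 5.39 in ein2 against 3.81 and 3.89 in Col. Its interaction was -1.72 ± 0.23 (limma adjusted p = 0.0655, and 0.0459 with the replicate block). The adjusted p was 0.23 in the auxin experiment alone and 0.114 with an intensity trend. With 1 array of the auxin experiment left out, the interaction lay between -1.90 and -1.55. The genotypes overlapped with IAA and stood apart with mock. LBD29 had the same pattern (-1.43 ± 0.40, adjusted p = 0.904, and 0.0459 with the replicate block). These values share the IAA arrays with the comparison in IAA.

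Among probe sets called with IAA, the largest changes between mock and IAA were those of AT3G47480, AT1G03820, AT3G11150, AT2G23060 and AT5G01870. AT1G03820 had 10.27 and 10.72 in ein2 IAA, against 8.71 and 8.48 in Col IAA, a difference of 1.90, while with mock the difference was 3.45. AT2G23060, of the N-acetyltransferase family, lay near background in all 4 mock arrays, at 1.90 to 1.95, and had 5.02 and 5.56 in ein2 IAA against 4.55 and 2.96 in Col IAA (1.53 ± 0.36, adjusted p = 0.0253). The Col IAA arrays differed widely there, AT2G23060 passed the filter only through the ein2 IAA arrays, and the call was lost without Col IAA replicate 2 (0.74, adjusted p = 0.0561) or ein2 IAA replicate 2 (0.194). The interaction of AT2G23060 was called without Col IAA replicate 1 (2.32, adjusted p = 0.0192) and in no other setting tried.

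The dirigent gene AT1G22900 was likewise at 1.94 to 2.04 with mock, and with IAA it had 6.17 and 5.57 in ein2 against 6.46 and 6.91 in Col (-0.82 ± 0.18, adjusted p = 0.016, and 0.136 to 0.158 without Col IAA replicate 2 or ein2 IAA replicate 2). The oxygenase gene AT3G11150 (1.21 ± 0.31) was not called without either Col IAA array, either ein2 mock array or ein2 IAA replicate 1 (adjusted p of 0.0551 to 0.26). The lipid transfer protein gene AT5G01870 (1.93 ± 0.43) was not called without Col IAA replicate 2 or ein2 IAA replicate 2 (0.159 to 0.167). The interactions of AT1G03820, AT2G23060, AT1G22900, AT3G11150 and AT5G01870 had adjusted p-values of 0.819 to 1.

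**Figure D4:**
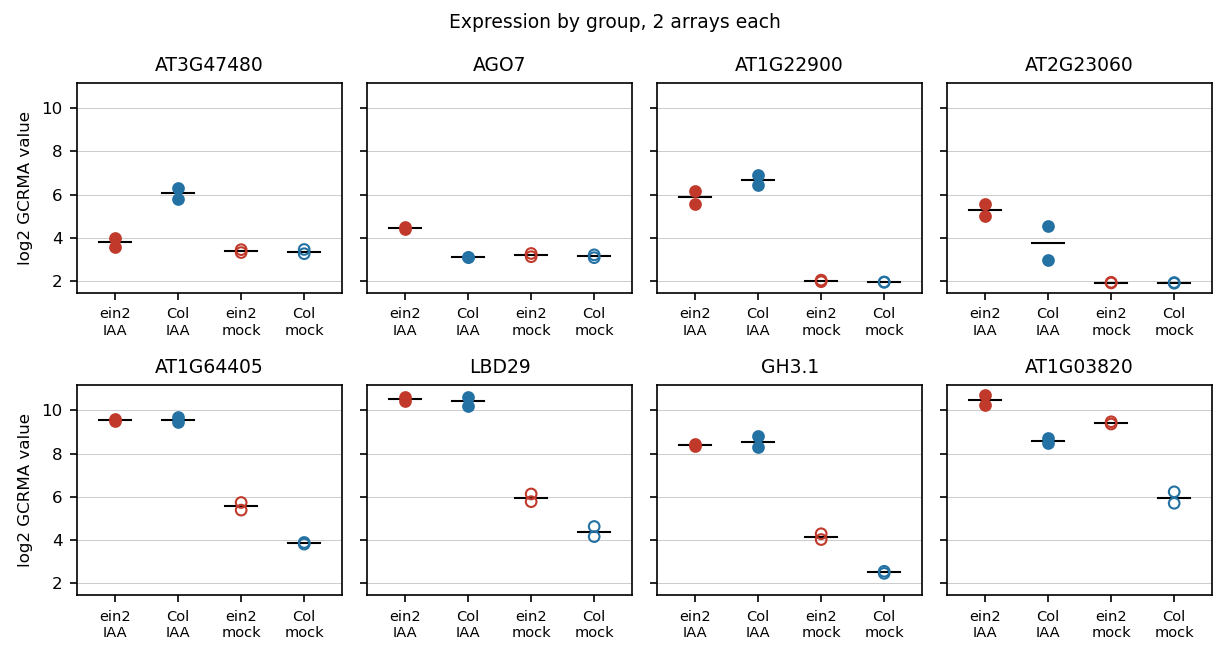
Expression (log2 GCRMA value, vertical) of 8 genes in ein2 IAA, Col IAA, ein2 mock and Col mock. Points are the 2 arrays of a group and bars their mean. The genotypes stand apart with IAA and overlap with mock for AT3G47480 (-2.27 and 0.02), and the reverse holds for LBD29 (0.13 and 1.56) and GH3.1 (-0.17 and 1.65).

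The genes that differed in ein2 were then set beside the ethylene response of the wild type, measured as Col ethylene minus Col air on arrays of the other experiment. Ethylene called 1246 probe sets (8.75%) in Col, 567 raised (3.98%) and 679 lowered (4.77%). Of the 453 lower in ein2 with IAA, 144 (31.8%) were raised by ethylene and 7 (1.55%) lowered. Of the 563 higher in ein2, 149 (26.5%) were lowered by ethylene and 12 (2.13%) raised. From the other side, these were 25.4% of all probe sets raised and 21.9% of all lowered by ethylene. The median ethylene response was 0.30 among those lower in ein2, -0.27 among those higher and 0.03 over all.

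Among the 56 probe sets at least 4-fold lower in ein2, 31 (55.4%) were raised by ethylene and 0 lowered, with a median response of 1.21. Among the 128 at least 4-fold higher, 14 (10.9%) were lowered and 1 raised, with a median of -0.14. Of the 563 higher, 83 passed the filter only through the ein2 arrays, and their low levels in Col left little room for a fall. How many of the 128 this concerns was not counted. The share of those higher that ethylene lowered was 32.1% with the filter at 6 and 15.1% with the 2-fold limit. The share of those lower that ethylene raised was 32.5% and 39.2% in these settings. No call for ethylene was made for 302 of the 453 lower and 402 of the 563 higher probe sets. The 144 became 93, 80 and 77 without Col IAA replicate 1, Col IAA replicate 2 and ein2 IAA replicate 2. The 149 became 90, 74, 95 and 83 without Col IAA replicate 1 and 2 and ein2 IAA replicate 1 and 2. Each of those settings left 1 array in a group. The share of those lower that ethylene raised was above 31.8% without either Col IAA array or ein2 IAA replicate 2. It was below 31.8% without ein2 IAA replicate 1 or any 1 of the Col air or Col ethylene arrays. The share of those higher that ethylene lowered was below 26.5% without Col air replicate 1 or either Col ethylene array. Without Col air replicate 2 that share was above 26.5%. Calls within the arrays of each experiment alone gave 21.2% of those lower raised by ethylene and 15.6% of those higher lowered.

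**Figure D5:**
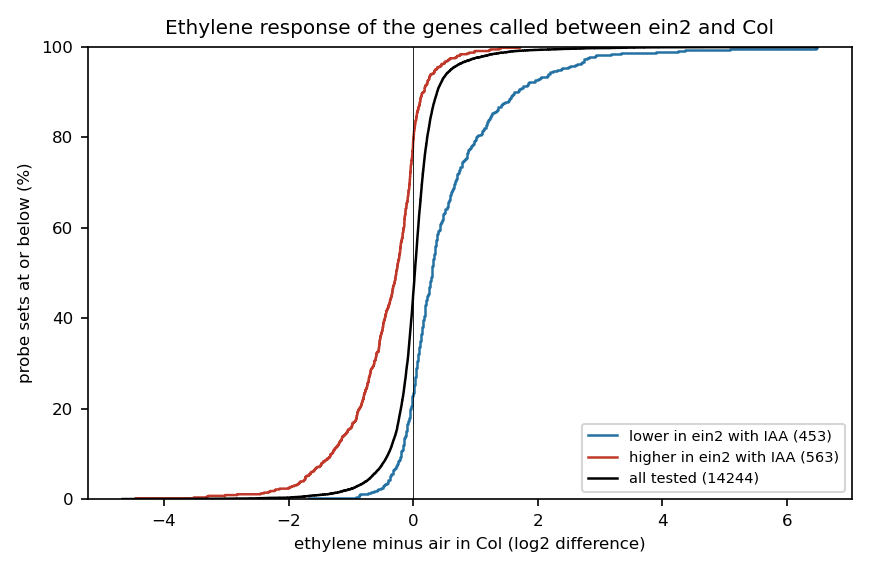
Cumulative share of probe sets (vertical, percent) by their ethylene response in Col (horizontal, log2 difference ethylene minus air, 2 arrays per group). Probe sets lower in ein2 with IAA (blue, median 0.30) lie to the right of all tested (black, median 0.03), and those higher in ein2 (red, median -0.27) lie to the left.

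Part of the genes higher in ein2 were also higher in aux1, which lacks an auxin influx carrier, on other arrays. This comparison of aux1 air with Col air was added after the values had been seen. It called 105 probe sets (0.737%), 81 higher (0.569%) and 24 lower (0.168%) in aux1. Of the 81, 60 (74.1%) were also higher in ein2 with IAA, which is 10.7% of the 563 probe sets higher in ein2, and 1 was lower. Among the 128 at least 4-fold higher in ein2, 46 (35.9%) were called higher in aux1, with a median difference of 0.86 on the log2 scale against 0.01 over all tested. Among the 56 at least 4-fold lower in ein2, 0 were called in aux1, with a median of -0.19. Against 0.737% of all tested, 56 probe sets are too few for a count of 0 to be told from the background share. The aux1 arrays in air had received no IAA, so treatment differed between the sets of arrays as well as genotype.

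In aux1 the lipid transfer protein genes AT2G18370 (5.76, adjusted p = 0.000159) and AT3G58550 (5.28) were higher than in Col, as were the GDSL genes AT5G37690 (4.62), AT2G23540 (4.05) and AT1G74460 (2.60), FACT (4.03), and the peroxidase gene AT2G35380 (4.36). Of the 5 suberin genes 4 were called in aux1, and AT5G08250 was not (-0.26, adjusted p = 0.882). AT5G22580 (0.03), AT5G04120 (-0.71) and AT4G23680 (0.44), all among the largest differences in ein2, were not called in aux1 either. AT5G08250, AT5G22580 and AT4G23680 passed the filter only through the ein2 arrays. They exceeded 4 on fewer than 2 arrays outside ein2, so high values on both aux1 air arrays were excluded beforehand. That these genes were not called in aux1 is a description. Of the 21 low-oxygen genes limma called 0 in aux1, against 0.737% of all tested, and 1 was lower at an unadjusted p under 0.05. Here too the genes are too few for a count of 0 to be told from that share.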

How the data were processed

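Total RNA of roots was measured on 16 Affymetrix arrays. The authors deposited 1 expression value per probe set and array. GCRMA is named in the submitters' processing notes, with its version not given in the sources used here, nor the set of arrays normalized together. The deposited values were read as log2 from their range and were used as they stand. Arrays have no count depth, so precision is set by how many there are.

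Gene names came from the annotation supplied for the array. Group means were fitted over all 16 arrays with limma 3.58.1 (R 4.3.3; 8 residual and 3.36 prior degrees of freedom), with two-sided p-values adjusted by Benjamini and Hochberg over the 14244 probe sets. Errors are moderated standard errors, and p-values reflect the spread between arrays. Genes were named by a rule: the 15 largest called differences in each direction with 1 locus code and groups apart, called members of lists, all tested ethylene signalling, GH3 and LBD members, the 5 called genes with the largest interaction and the 3 smallest interaction p-values. Members and lists were chosen with earlier results of these data known. The peroxidase, dirigent, low-oxygen and suberin lists and the families found by symbol were compiled after the values had been seen. In the 6 pairs of groups of the auxin experiment, deviations of same-numbered arrays correlated at 0.109 to 0.413 (0.198 for ein2 IAA with Col IAA), so fits with the replicate number as a block are given where they change a call or a count by over 1.5 times. Alternatives covered scaling, filters, the variance model, the arrays fitted, a 2-fold size limit, this block and single arrays left out.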

Additional observations from a re-analysis of the deposited data

How the results depend on the processing

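The count of 1016 for ein2 against Col in IAA stayed within 1.5 times with an intensity trend, 1 probe set per locus, quantile normalization, median centring, a filter at 6 or none, the auxin experiment alone (1184) and the 4 IAA arrays alone (707). It was 465 with a 2-fold limit, 1531 with the replicate block, and 515 to 938 with 1 array left out. In mock the count of 1558 was 564 with the limit, 2398 with the block and 787 to 1479 with 1 array left out. The interaction count of 0 was 3 with no filter, 5 with the block, and 0 to 6 with 1 array left out. For ethylene in Col the count of 1246 was 526 with the limit, 695 in the ethylene experiment alone and 731 to 1081 with 1 array left out.

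Differences in IAA were followed for 204 named or listed probe sets, of which 81 were called. No called difference changed its sign. The block gained 12 calls and lost 0. Setting the size limit aside, 52 of the 81 were called in every setting in which they were tested (21 of the 204 and 7 of the 81 were not tested with the filter at 6) and 29 lost a call in at least 1, 26 of them when 1 array was left out. Of the 30 genes with the largest differences, AT1G33055 (adjusted p = 0.0529) and AT3G58550 (0.0738) were not called in the 4 IAA arrays alone, and AT2G17850 was not called there (0.146), with no filter (0.102) or in the auxin experiment alone (0.0834). With 2 arrays per group, differences under 2-fold were called mainly where replicates were close.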

Other observations

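Some genes called between ein2 and Col were neighbours in the genome. Of 2358 pairs of tested genes that follow each other among the protein-coding genes of RefSeq's TAIR10.1 annotation, 20 had both members called in IAA, 14 of them in the same direction. After a called gene the next one was called in 11.3% of 177 cases, against 7.13% of all probe sets. The pairs were AT2G18360 and AT2G18370 (3.86 and 3.89), AT4G11190 and AT4G11210 (2.16 and 2.17), and AT4G23670 and AT4G23680 (1.67 and 4.25), among others.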
